A study of Mus musculus with 12 samples.

Results

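Matricellular proteins are secreted into the matrix around cells, where they act mainly as signals rather than as load-bearing fibres. Here 10 genes of this kind were followed in adipocyte precursor cells, the fibroblast-like cells of fat tissue that give rise to fat cells. They are the thrombospondins Thbs1, Thbs2 and Thbs3, the fasciclin-domain proteins Postn (periostin) and Tgfbi, the collagen-binding protein Sparc, tenascin C (Tnc), the CCN proteins Ctgf and Cyr61, and fibronectin (Fn1). They were taken by symbol, with no cut-off on their values, from a list chosen with earlier results of these data known. All 10 were found among the 14398 genes of the count table. Ctgf and Cyr61 are the older symbols, as the table gives them, of Ccn2 and Ccn1.

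Thrombospondins bind CD47, CD36 and integrins on the cell surface, and Thbs1 can release TGF-beta from its latent complex. Periostin, Tgfbi, tenascin C and the CCN proteins are ligands of integrins, and Sparc binds collagen and weakens cell adhesion. In fat, proteins of this group take part in the remodelling of matrix as the tissue expands, and Sparc is known in mice to limit the formation of fat cells.

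Poly(A) RNA was sequenced from precursors sorted from male C57Bl6/J mice of 6 to 8 weeks, in 4 groups of 3 libraries. VWAT_HFD and VWAT_SD cells came from perigonadal fat of mice on a 60% lard high-fat diet for 3 days (HFD, labelled day 3) or on standard diet (SD, labelled day 0). SWAT_HFD and SWAT_SD cells came from inguinal subcutaneous fat on the same diets. The sort kept cells that lacked CD45 and CD31, carried CD29, CD34 and Sca1, and either lacked or carried CD24. Each library was pooled from 3 mice, so the spread between libraries is that between pools. The labels name no transgene or deletion in any group, and day and diet go together and cannot be told apart.

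The promoters of 5 members are shown here because these genes carry large diet or depot differences described further on, or, for Cyr61, a depot difference in a gene that is a classic target of TEAD factors. RefSeq promoters (GRCm38.p6) were found for 7 of the 10 members, as 9 windows that run from 250 bases before to 50 bases after a start site. The counts themselves were made on another build, mm9, so no gene coordinates from the counting are given. The windows printed are those of Postn at chr3:54360857-54361156 on the plus strand, Sparc at chr11:55420031-55420330 on the minus strand, Tgfbi at chr13:56609336-56609635 on the plus strand, Thbs2 at chr17:14694213-14694512 on the minus strand, and Cyr61 at chr3:145649936-145650235 on the minus strand. Each is written 5′ to 3′ on the strand of its gene, with motif matches in capitals.
Postn: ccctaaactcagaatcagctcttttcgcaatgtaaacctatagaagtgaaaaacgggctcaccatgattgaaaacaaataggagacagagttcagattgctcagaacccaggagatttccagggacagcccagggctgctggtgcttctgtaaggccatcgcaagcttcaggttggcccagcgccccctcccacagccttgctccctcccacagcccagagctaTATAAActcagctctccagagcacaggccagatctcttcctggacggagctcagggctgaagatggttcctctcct
Sparc: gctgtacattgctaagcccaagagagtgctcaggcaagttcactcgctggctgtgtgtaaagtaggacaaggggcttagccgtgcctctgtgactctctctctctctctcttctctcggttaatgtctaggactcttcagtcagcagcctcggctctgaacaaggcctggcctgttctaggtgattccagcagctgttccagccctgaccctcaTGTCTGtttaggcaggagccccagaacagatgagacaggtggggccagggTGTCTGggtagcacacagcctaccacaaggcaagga
Tgfbi: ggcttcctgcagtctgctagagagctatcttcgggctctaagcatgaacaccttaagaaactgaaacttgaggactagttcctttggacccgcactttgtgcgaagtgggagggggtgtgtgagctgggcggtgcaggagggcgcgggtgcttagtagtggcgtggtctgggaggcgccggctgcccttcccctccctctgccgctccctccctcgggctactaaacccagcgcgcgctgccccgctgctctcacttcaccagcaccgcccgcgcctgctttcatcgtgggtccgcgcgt
Thbs2: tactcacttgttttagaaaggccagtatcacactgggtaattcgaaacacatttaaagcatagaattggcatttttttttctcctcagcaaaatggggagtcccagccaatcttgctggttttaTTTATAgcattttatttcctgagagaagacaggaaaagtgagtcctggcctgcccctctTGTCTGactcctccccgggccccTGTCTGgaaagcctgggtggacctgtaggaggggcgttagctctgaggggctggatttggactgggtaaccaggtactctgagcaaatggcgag
Cyr61: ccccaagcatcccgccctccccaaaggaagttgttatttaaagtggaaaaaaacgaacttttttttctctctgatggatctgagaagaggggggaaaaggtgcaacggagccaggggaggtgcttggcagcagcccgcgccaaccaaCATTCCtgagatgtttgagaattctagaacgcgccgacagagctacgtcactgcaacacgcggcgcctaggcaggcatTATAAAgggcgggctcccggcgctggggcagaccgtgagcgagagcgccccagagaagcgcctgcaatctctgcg

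The 5 motifs searched, on both strands, were TATAAA (the TATA box), CAGACA (bound by SMAD factors downstream of TGF-beta), GGAATG (bound by TEAD factors), TGANTCA (bound by AP-1) and the CArG box of serum response factor. Of all 32851 RefSeq promoters of this length, 13.6% held TATAAA, 21.0% CAGACA, 14.7% GGAATG, 7.81% TGANTCA and 1.63% a CArG box. The Postn window holds TATAAA at 26 bases before the start site. The Cyr61 window holds TATAAA at 25 bases and GGAATG, on the opposite strand, at 103 bases before it. The Sparc window holds CAGACA on the opposite strand at 36 bases before and at position 15 after the start, and the Thbs2 window holds it at 67 and 44 bases before, with TATAAA on the opposite strand at 126 bases before. The Tgfbi window holds none of the 5. Of the windows not printed, both of Tnc hold CAGACA and TATAAA, and that of Thbs3 and the other one of Postn hold none. No 2 matches overlap. These are matches of letters and were not tested against the expression values.

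Per length, Sparc was the highest member and Tnc the lowest in all 4 groups. On the scale of CPM per kb of exon (CPM being counts scaled to a common library size, with TMM factors for library composition), mean Sparc levels were 3610 in VWAT_HFD and 1763 in VWAT_SD, and 7086 in SWAT_HFD and 3714 in SWAT_SD. Fn1, the fibril-forming ligand of integrin alpha 5 beta 1, was second in VWAT and SWAT on both diets, at 752 to 944 CPM per kb. The order of the next genes depended on the depot: Thbs1 stood at 378 and 164 CPM per kb in VWAT_HFD and VWAT_SD, and at 57.2 and 36.4 in SWAT_HFD and SWAT_SD. Thbs3, Tgfbi and Thbs2 were close together in SWAT_HFD, at 59.2, 62.8 and 60.7 CPM per kb, and their library ranges overlapped, with that of Thbs1 among them. In VWAT_HFD the ranges of Thbs1, Cyr61 and Postn overlapped, as did those of Ctgf, Thbs2 and Tgfbi in their order, whereas in VWAT_SD only Ctgf and Thbs2 and in SWAT_SD only Thbs2 and Thbs3 overlapped as neighbours. Tnc stayed at 0.506 CPM per kb or less, which is 0.757 to 6.26 CPM in single libraries.

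**Figure D1:**
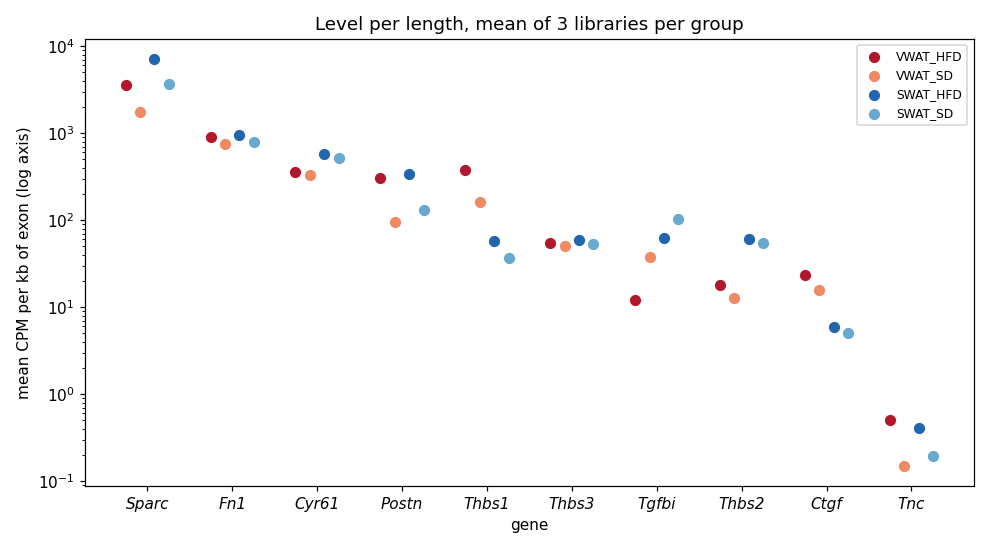
Mean CPM per kb of exon on a log axis for each of the 10 genes (x axis, ordered by their mean over groups), with 1 point for each of the 4 groups of 3 libraries. Sparc is at the top in every group, from 1763 to 7086, and Tnc at the bottom, from 0.151 to 0.506.

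The libraries held 17.6 to 56.1 M gene counts (M, 1e6). The 10 genes took 2.58 to 3.58% of the counts in VWAT_HFD libraries, against 2.003 to 2.23% in VWAT_SD libraries, and 3.23 to 4.01% in SWAT_HFD libraries, against 2.57 to 2.65% in SWAT_SD libraries, and Sparc and Fn1 made up 77.9 to 88.1% of that share. Of the sort markers, Itgb1 (CD29), Cd34 and Ly6a (Sca1) were at 485.5, 956 and 386 CPM in their lowest libraries. Pdgfra, a precursor marker that was not sorted for, was at 657 CPM or more. The 9 leukocyte markers in the table summed to 6.86 to 44.0 CPM a library, with the highest sum in SWAT_HFD replicate 2, and Ptprc (CD45) reached 6.93 CPM at most. The endothelial list of 7 genes summed to 187 to 316 CPM, nearly all of it Tek, with Pecam1 (CD31) at 8.66 CPM or less, and adipocyte markers summed to 5.61 CPM or less. On the second principal component (11.8% of the variance), the score of VWAT_HFD replicate 3 was -0.1, whereas its fellow replicates scored -22.2 and -29.5 and VWAT_SD cells 14.3 to 21.5.

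The first question was what 3 days of HFD did to these genes in VWAT precursors. Thbs1, Postn, Tnc and Sparc were higher and Tgfbi was lower after HFD, by 2.05- to 3.33-fold, while Thbs2, Thbs3, Ctgf, Cyr61 and Fn1 did not pass the test. A gene passed, rose or fell when its Benjamini-Hochberg adjusted p in edgeR's quasi-likelihood test, taken over all 14266 genes tested, was under 0.05. Thus 4 of 10 members rose, where 8.64% of all genes rose, and 1 of 10 fell, where 6.98% of all genes fell. The median log2 change of the 10 was 0.54, beside -0.017 over all genes. In 4 members the VWAT_HFD libraries were all higher than the VWAT_SD libraries and in 1 all lower, where 15.5% and 17.5% of all genes did so. In bulk RNA, a change in the share of cells that make a transcript and a change in the amount per cell cannot be told apart.

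Among the thrombospondins, only Thbs1 passed in VWAT. Thbs1 stood at 1958, 2631 and 2292 CPM in VWAT_HFD replicates 1 to 3, against 1114, 1116 and 755 CPM in VWAT_SD replicates 1 to 3. Every VWAT_HFD library lay above every VWAT_SD library, and the change was 2.31-fold (log2 1.21, SE 0.207, adjusted p = 0.00270 in edgeR). Platelets are another rich source of this protein, and of 3 platelet markers in the table Gp1bb also rose, to 4.95 CPM in VWAT_HFD, against 2.87 CPM in VWAT_SD (adjusted p = 0.00960 in edgeR), while Pf4, their defining one, reached 0.928 CPM at most. The 3 summed to 8.39 to 12.2 CPM in VWAT_HFD and 8.01 to 8.04 CPM in VWAT_SD libraries, and their part in the result was not tested. Thbs2, which like Thbs1 forms trimers and restrains the growth of vessels, was at 126, 164 and 90.1 CPM in VWAT_HFD, against 109, 83.7 and 78.5 CPM in VWAT_SD. The 2 groups overlapped, and the log2 change of 0.49 (SE 0.192) did not pass (adjusted p = 0.0991 in edgeR), though it passed without VWAT_HFD replicate 3 (adjusted p = 0.00702). Thbs3, a pentamer-forming member, was at 231 to 285 CPM in VWAT_HFD and 233 to 258 CPM in VWAT_SD, a log2 change of 0.11 with a 95% interval of -0.11 to 0.33.

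The pair of fasciclin-domain genes moved in opposite directions. Postn stood at 3133, 3739 and 1092 CPM in VWAT_HFD, against 935, 843 and 736 CPM in VWAT_SD. All VWAT_HFD libraries were above all VWAT_SD libraries, but replicate 3 only narrowly, at 1.30 times the VWAT_SD mean where replicates 1 and 2 were at 3.74 and 4.46 times. The change was 3.17-fold (log2 1.66, SE 0.365, adjusted p = 0.00981 in edgeR), and it no longer passed without VWAT_HFD replicate 2 (adjusted p = 0.0569) or without VWAT_SD replicate 3 (adjusted p = 0.0505). Tgfbi, which is named for its induction by TGF-beta, stood at 47.7, 33.7 and 54.5 CPM in VWAT_HFD, against 154, 129 and 146 CPM in VWAT_SD. The highest VWAT_HFD library was below the lowest VWAT_SD library. Tgfbi fell 3.16-fold (log2 -1.66, SE 0.176, adjusted p = 0.000628 in edgeR), and its p was the 8th lowest of the 14266 genes.

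Sparc and Tnc rose as well. Sparc stood at 16820, 15669 and 8538 CPM in VWAT_HFD, against 6888, 6178 and 6971 CPM in VWAT_SD. The groups did not overlap, replicate 3 was again the lowest VWAT_HFD library, and the change was 2.05-fold (log2 1.03, SE 0.221, adjusted p = 0.00855 in edgeR). Tnc, a large hexameric protein that is sparse in resting tissue, was at 3.17, 6.26 and 2.37 CPM in VWAT_HFD, against 1.67, 1.10 and 0.757 CPM in VWAT_SD. It rose 3.33-fold (log2 1.73, SE 0.454, adjusted p = 0.0225 in edgeR) from this low level. That call was lost without VWAT_HFD replicate 2 and without VWAT_SD replicate 2 or 3 (highest adjusted p = 0.137).

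The CCN genes and Fn1 did not pass in VWAT. Ctgf, a CCN protein induced by TGF-beta and by YAP, was at 61.3, 90.7 and 51.0 CPM in VWAT_HFD, against 68.4, 40.3 and 25.8 CPM in VWAT_SD, and the groups overlapped (log2 change 0.59, 95% interval -0.12 to 1.31). Cyr61, the other YAP-responsive CCN gene, was at 654 to 852 CPM in VWAT_HFD and 614 to 705 CPM in VWAT_SD (log2 change 0.13, interval -0.20 to 0.45). Fn1 was at 9065 to 11770 CPM in VWAT_HFD and 8016 to 9543 CPM in VWAT_SD (log2 change 0.27, interval -0.07 to 0.61). The upper ends of the Cyr61 and Fn1 intervals lie below the Sparc estimate, and that of Ctgf lies above it.

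**Figure D2:**
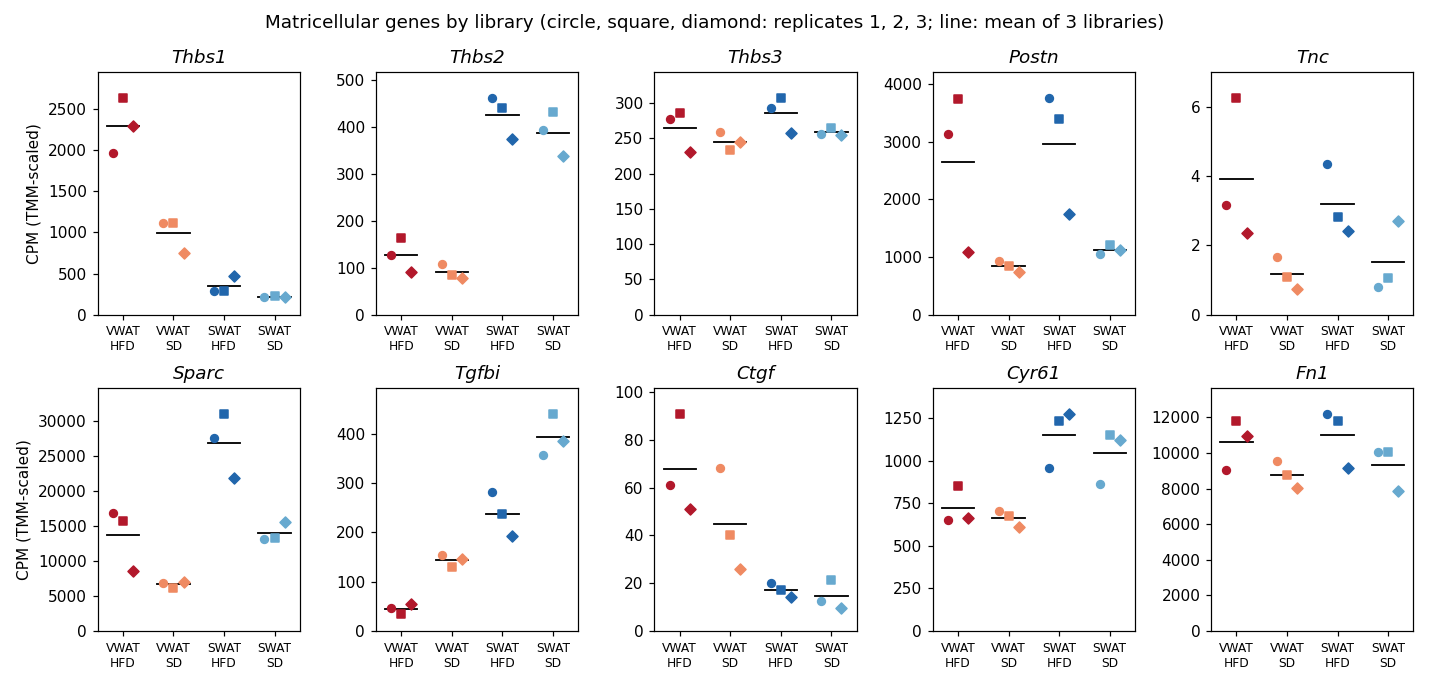
CPM (y axis, from 0, with its own scale in each panel) of the 10 genes in each of the 12 libraries, by group on the x axis, with a line at the mean of 3 libraries. Postn and Sparc show VWAT_HFD replicate 3 (diamond) apart from replicates 1 and 2, at 1092 and 8538 CPM, whereas Tgfbi at 54.5 CPM and Thbs1 at 2292 CPM lie with them.

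In SWAT precursors the same members had the largest changes, but none passed. In edgeR 0 of 10 members passed, where 1.11% of all genes did. 5 of 10 had an unadjusted p under 0.05, where 14.9% of all genes did; DESeq2 passed 4 (Thbs1, Postn, Sparc and Tgfbi), where it passed 3.83% of all genes, and limma voom passed 0, where it passed 0.0841%. The median log2 change of the 10 was 0.22, beside -0.0015 over all genes. Without overlap, 3 members were higher in SWAT_HFD and 1 was lower, where 11.6% and 10.2% of all genes were. The number that passed was 3 when only the 6 SWAT libraries were fitted (Postn, Sparc and Tgfbi), where 2.57% of all genes passed. It was also 3 without VWAT_HFD replicate 3, where 4.29% of all genes passed; that library enters this comparison only through the shared estimate of spread.

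Postn stood at 3760, 3387 and 1751 CPM in SWAT_HFD, against 1048, 1213 and 1127 CPM in SWAT_SD. No SWAT_HFD library overlapped with SWAT_SD, and replicate 3 was again the lowest (log2 change 1.39, SE 0.362, adjusted p = 0.0914 in edgeR). Sparc stood at 27596, 31016 and 21908 CPM in SWAT_HFD, against 13204, 13345 and 15654 CPM in SWAT_SD. The groups were apart (log2 change 0.93, SE 0.220, adjusted p = 0.0654 in edgeR). Tgfbi was at 282, 236 and 192 CPM in SWAT_HFD, against 358, 439 and 385 CPM in SWAT_SD, again without overlap (log2 change -0.74, SE 0.171, adjusted p = 0.0619 in edgeR).

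Thbs1 was at 285, 283 and 475 CPM in SWAT_HFD, against 220, 228 and 215 CPM in SWAT_SD. All 3 SWAT_HFD libraries were higher, with replicate 3 well above the other 2 (log2 change 0.65, SE 0.205, adjusted p = 0.157 in edgeR). Tnc overlapped, at 4.35, 2.82 and 2.41 CPM in SWAT_HFD and 0.803, 1.06 and 2.70 CPM in SWAT_SD. The remaining members (Thbs2, Thbs3, Ctgf, Cyr61 and Fn1) had log2 changes of 0.13 to 0.24, and their groups overlapped.

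The difference of the diet effects between depots was tested directly, and 0 of 10 members passed, as did 0% of all genes. Without VWAT_HFD replicate 3, 135 genes passed, with 0 members among them. 1 member, Tgfbi, had an unadjusted p under 0.05, where 7.19% of all genes did, and DESeq2 and limma voom passed 0 members. For Tgfbi the diet effect in VWAT minus that in SWAT was -0.92 on the log2 scale (SE 0.242, unadjusted p = 0.00219, adjusted p = 0.478 in edgeR). For Postn the difference was 0.27 with an interval of -0.82 to 1.36, and for Sparc 0.10 with an interval of -0.57 to 0.77. Passing in VWAT and not in SWAT is therefore not shown to be a difference between depots for any member.

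**Figure D3:**
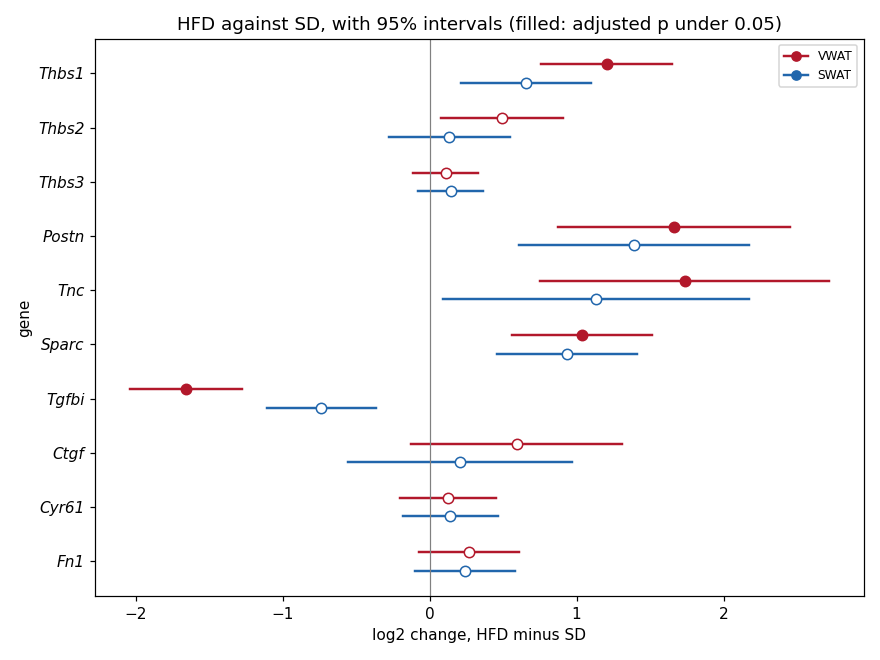
Log2 change of HFD minus SD (x axis) for each gene (y axis) in VWAT and in SWAT, from the edgeR fit of 12 libraries; bars are 95% intervals, and filled points have an adjusted p under 0.05. Filled points are those of Thbs1, Postn, Tnc, Sparc and Tgfbi in VWAT, and each SWAT point lies on the same side of 0 as its VWAT point; with library size alone the SWAT values of Thbs2, Thbs3 and Cyr61 and the VWAT value of Thbs3 change side.

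The libraries of 1 diet group did not shift alike. Against the mean of the 3 SD libraries of the same depot, Postn was 3.74, 4.46 and 1.30 times as high in VWAT_HFD replicates 1 to 3, and 3.33, 3.00 and 1.55 times in SWAT_HFD replicates 1 to 3. Sparc followed the same order of replicate 3 below the others, at 2.52, 2.35 and 1.28 times in VWAT_HFD and 1.96, 2.21 and 1.56 times in SWAT_HFD. Thbs1 did not: it was at 1.97, 2.65 and 2.30 times in VWAT_HFD, and SWAT_HFD replicate 3 was its highest library in that depot, at 2.15 times where the others were at 1.29 and 1.28. Tgfbi was at 0.333, 0.236 and 0.381 times in VWAT_HFD and at 0.716, 0.599 and 0.488 times in SWAT_HFD, so that SWAT_HFD replicate 3 was also the library with its largest shift in SWAT.

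Genes of cell division moved with the diet. The summed level of 10 such genes (Mki67 and Top2a among them) was 259, 415 and 108 CPM in VWAT_HFD replicates 1 to 3, against 24.1 to 36.2 CPM in VWAT_SD. VWAT_HFD replicate 3 was thus the lowest of its group for division genes as for Postn and Sparc. In SWAT the sum was 92.2, 129 and 124 CPM in SWAT_HFD, against 13.2 to 22.5 CPM in SWAT_SD, and replicate 3, the lowest for Postn and Sparc, was not the lowest for division genes. Some markers of other cell types moved with the diet in VWAT as well. The leukocyte list summed to 6.86 to 10.1 CPM in VWAT_HFD, against 10.65 to 17.02 CPM in VWAT_SD, and Cd14 fell to 2.06 CPM in VWAT_HFD, against 3.78 CPM in VWAT_SD (adjusted p = 0.00339 in edgeR). The Schwann cell list summed to 6.2 to 7.68 CPM in VWAT_HFD, against 8.265 to 11.5 CPM in VWAT_SD, and Mbp fell (adjusted p = 0.00169). Of the mural list, Myh11 fell and Notch3 and Cspg4 rose (adjusted p = 0.0154, 0.0208 and 0.0470), and the sums overlapped. The part of division and of these markers in the members' changes was not tested.

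**Figure D4:**
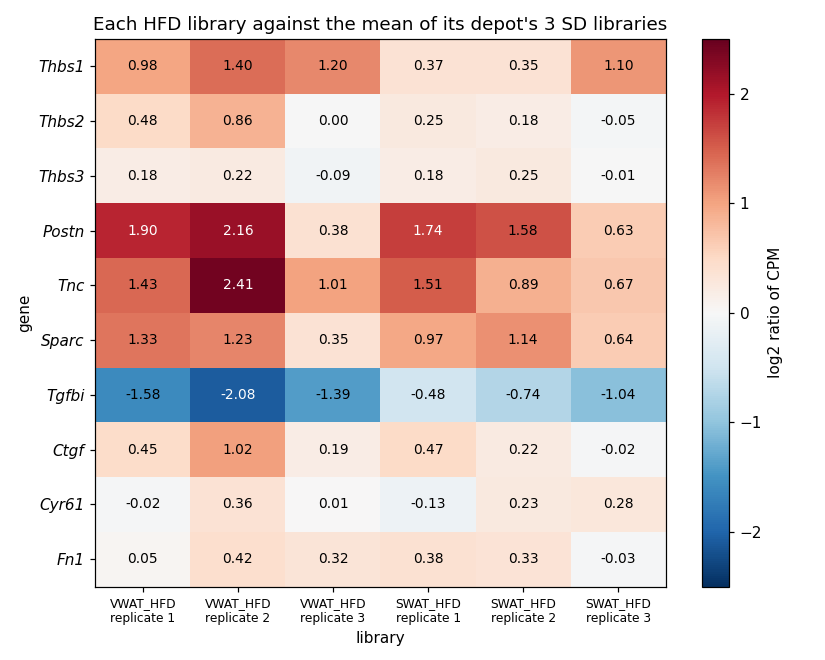
Log2 ratio of the CPM of each HFD library (columns) to the mean of the 3 SD libraries of its depot, for the 10 genes (rows); red is above the SD mean and blue below. Tgfbi is below in all 6 HFD libraries and Thbs1, Postn, Tnc and Sparc are above in all 6, with Postn at 0.38 in VWAT_HFD replicate 3 and at 1.90 and 2.16 in the other VWAT_HFD libraries.

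The second question was how the depots differ. Thbs1 and Ctgf were higher and Thbs2, Tgfbi, Sparc and Cyr61 lower in VWAT than in SWAT, on both diets, while Thbs3, Postn, Tnc and Fn1 did not pass on either diet. On HFD, 2 of 10 members were higher in VWAT, where 13.4% of all genes were, and 4 of 10 were lower, where 13.4% were. On SD, 2 of 10 were higher, where 13.2% of all genes were, and 4 of 10 were lower, where 12.5% were. The libraries did not overlap in 6 members on HFD and in 7 on SD, where 36.0% and 45.1% of all genes did not. The members' median log2 difference was -0.13 on HFD and -0.34 on SD, beside 0.017 and 0.018 over all genes.

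Thbs1 and Thbs2, which resemble each other in structure and receptors, lay on opposite sides. From the values given above, Thbs1 averaged 2294 ± 336 CPM in VWAT_HFD and 347 ± 110 CPM in SWAT_HFD (± standard deviation, n = 3 each). The difference was 6.60-fold (log2 2.72, SE 0.217, adjusted p = 7.38e-07 in edgeR). On SD it averaged 995 ± 208 CPM in VWAT_SD and 221 ± 6.65 CPM in SWAT_SD (4.50-fold, adjusted p = 4.79e-06 in edgeR). Thbs2 averaged 127 ± 37.1 CPM in VWAT_HFD, against 425 ± 46.1 CPM in SWAT_HFD, and was at 462, 440 and 373 CPM in the SWAT_HFD libraries. On SD it averaged 90.3 ± 16.1 CPM in VWAT_SD, against 387 ± 47.1 CPM in SWAT_SD. It was thus 3.35-fold lower in VWAT on HFD (adjusted p = 1.76e-05 in edgeR) and 4.29-fold lower on SD (adjusted p = 3.36e-06). Thbs3 did not pass, with a log2 difference of -0.11 on HFD (interval -0.33 to 0.11) and -0.08 on SD (interval -0.30 to 0.15).

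Tgfbi and Sparc were also lower in VWAT. Tgfbi averaged 45.3 ± 10.6 CPM in VWAT_HFD, against 237 ± 44.9 CPM in SWAT_HFD, 5.22-fold lower (log2 -2.38, SE 0.180, adjusted p = 4.70e-07 in edgeR). On SD it averaged 143 ± 12.5 CPM in VWAT_SD, against 394 ± 41.7 CPM in SWAT_SD, 2.76-fold lower (log2 -1.46, adjusted p = 2.83e-05 in edgeR). The highest VWAT library was below the lowest SWAT library on each diet. Sparc was 1.96-fold lower in VWAT on HFD (log2 -0.97, adjusted p = 0.00497 in edgeR) and 2.11-fold lower on SD (log2 -1.07, adjusted p = 0.00246). Postn, which tracked Sparc in its diet values, had a log2 difference of -0.16 on HFD (interval -0.93 to 0.61) and -0.43 on SD (interval -1.20 to 0.34).

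The 2 CCN genes parted between the depots. Ctgf was at 61.3, 90.7 and 51.0 CPM in VWAT_HFD, against 20.1, 16.96 and 14.3 CPM in SWAT_HFD, a 3.99-fold difference without overlap (log2 1.996, SE 0.353, adjusted p = 0.000798 in edgeR). On SD it was at 68.4, 40.3 and 25.8 CPM in VWAT_SD, against 12.8, 21.3 and 9.49 CPM in SWAT_SD, again without overlap (log2 1.61, SE 0.348, adjusted p = 0.00351 in edgeR). Cyr61 was at 654, 852 and 667 CPM in VWAT_HFD, against 957, 1232 and 1274 CPM in SWAT_HFD, and at 705, 673 and 614 CPM in VWAT_SD, against 865, 1150.2 and 1125 CPM in SWAT_SD. It was lower in VWAT without overlap on each diet, by 1.59-fold on HFD (adjusted p = 0.00472 in edgeR) and 1.58-fold on SD (adjusted p = 0.00543). Fn1 had log2 differences of -0.06 and -0.09, with intervals within -0.43 to 0.28.

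On SD, same-numbered VWAT and SWAT libraries deviated together from their group means. In a planned fit of the 6 SD libraries alone without a block, Postn passed as lower in VWAT (log2 -0.43, adjusted p = 0.0155 in edgeR). There 30.1% of all genes passed. With the number as a block in a fit of the 6 SD libraries alone, an alternative chosen after the data were seen, Ctgf no longer passed (adjusted p = 0.0943) and Postn passed as lower in VWAT (log2 -0.43, adjusted p = 0.00297). With that block 47.3% of all genes passed. The other calls on SD held, and the block in the fit of all 12 libraries changed no depot call.

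**Figure D5:**
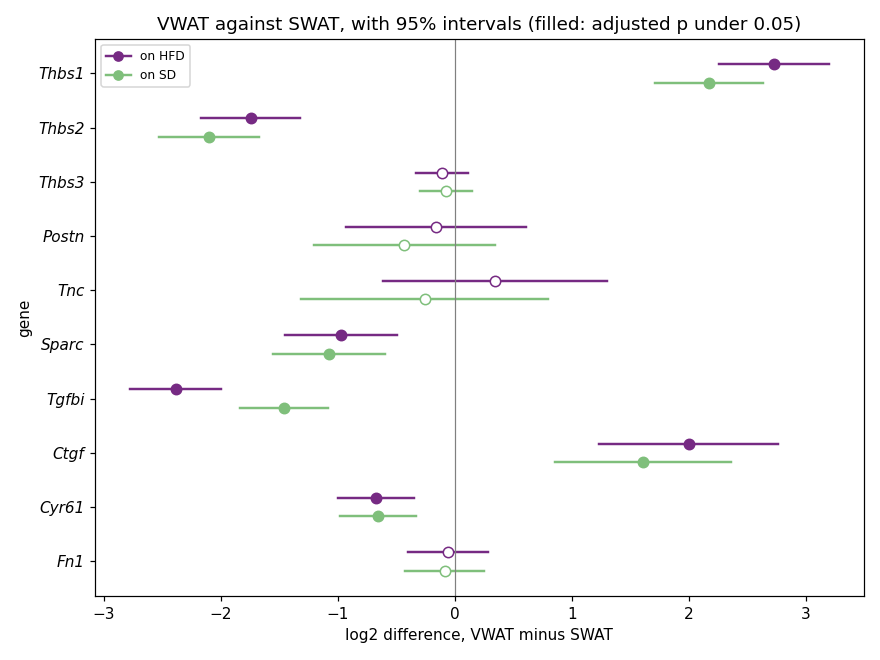
Log2 difference of VWAT minus SWAT (x axis) for each gene (y axis) on HFD and on SD, from the edgeR fit of 12 libraries; bars are 95% intervals, and filled points have an adjusted p under 0.05. Thbs1 (2.72 and 2.17) and Ctgf (1.996 and 1.61) lie to the right on both diets, and Thbs2, Tgfbi, Sparc and Cyr61 to the left.

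Markers of other cell types also went with depot. The summed mural list of 7 genes was 114 to 132 CPM in VWAT_HFD, against 37.3 to 47.9 CPM in SWAT_HFD, and 121 to 149 CPM in VWAT_SD, against 31.3 to 39.0 CPM in SWAT_SD, and the larger part of it in VWAT was Des. Its members did not all go one way. Myh11 and Acta2 were higher in VWAT on both diets, like Des, whereas Kcnj8 was lower, at 0.394 CPM in VWAT_HFD, against 3.17 CPM in SWAT_HFD, and at 0.478 CPM in VWAT_SD, against 3.89 CPM in SWAT_SD (adjusted p = 7.68e-05 and 4.91e-05 in edgeR). Cspg4 was lower in VWAT on SD (adjusted p = 0.00474), and the pericyte marker Rgs5 overlapped, at 2.45 to 11.6 CPM in VWAT_HFD and 3.21 to 7.74 CPM in SWAT_HFD. The 6 mesothelial markers in the table summed to 106 to 122 CPM in VWAT_HFD and 103 to 131 CPM in VWAT_SD, against 2.41 to 4.83 CPM in SWAT_HFD and 2.75 to 4.59 CPM in SWAT_SD. Nearly all of it in VWAT was Wt1, which visceral precursors also express, and Msln and Upk3b, the defining markers, reached 1.62 and 3.39 CPM at most. At these low levels Msln, Upk3b and Upk1b were, like Wt1, higher in VWAT on both diets. Msln was at 0.892 CPM in VWAT_HFD, against 0.01725 CPM in SWAT_HFD (adjusted p = 0.0006975 in edgeR). Upk3b was at 1.71 CPM in VWAT_HFD, against 0.0999 CPM in SWAT_HFD (adjusted p = 0.000463 in edgeR). Krt19 of the same list was lower in VWAT on both diets, at 0.497 CPM in VWAT_HFD, against 3.06 CPM in SWAT_HFD (adjusted p = 0.000529 in edgeR). The 4 Schwann cell markers summed to 6.2 to 7.68 CPM in VWAT_HFD, against 30.96 to 35.0 CPM in SWAT_HFD, most of it Mbp in SWAT. The leukocyte list summed to 6.86 to 10.1 CPM in VWAT_HFD, against 12.6 to 44.0 CPM in SWAT_HFD, and overlapped on SD. The 3 platelet markers summed to 8.39 to 12.2 CPM in VWAT_HFD, against 14.9 to 19.4 CPM in SWAT_HFD. On SD they summed to 8.01 to 8.04 CPM in VWAT_SD, against 15.7 to 16.4 CPM in SWAT_SD. Itga2b was lower in VWAT on both diets, and Gp1bb was higher in VWAT on HFD. The part of all these markers in the members' depot differences was not tested.

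Further genes of the same protein families were read from a list of 17, of which 15 were tested. In VWAT, 1 rose and 4 fell after HFD, where 8.64% and 6.98% of all genes did. Fstl1, a secreted relative of Sparc, rose to 6019 CPM in VWAT_HFD, against 2782 CPM in VWAT_SD (log2 1.11, adjusted p = 0.0110 in edgeR). Smoc1 and Spock2, other relatives of Sparc, the cartilage thrombospondin Comp and the CCN gene Wisp2 fell. Spock2 fell to 40.1 CPM in VWAT_HFD, against 64.1 CPM in VWAT_SD (adjusted p = 0.00303 in edgeR). Comp was near the floor, at 0.0595 CPM in VWAT_HFD, against 0.277 CPM in VWAT_SD, and the Wisp2 libraries of these groups overlapped. The median log2 change of the 15 was -0.016. The rise was lost without VWAT_HFD replicate 2 or VWAT_SD replicate 3 and 2 rose without VWAT_HFD replicate 3, and 2 fell without replicate 1 of either VWAT group or VWAT_SD replicate 3. Of all genes, 5.29% passed without VWAT_HFD replicate 2, 6.76% without VWAT_SD replicate 3 and 29.8% without VWAT_HFD replicate 3. Without VWAT_HFD replicate 1 it was 9.24%, and without VWAT_SD replicate 1 it was 9.75%. In SWAT 0 passed in edgeR or limma voom, where 1.11% and 0.0841% of all genes passed. DESeq2 passed 1 higher and 1 lower, where it passed 3.83% of all genes, and 3 had an unadjusted p under 0.05, where 14.9% did. Between depots, Thbs4, another thrombospondin, was at 1.17 CPM in VWAT_HFD, against 37.3 CPM in SWAT_HFD, and at 0.505 CPM in VWAT_SD, against 35.8 CPM in SWAT_SD (adjusted p = 1.31e-05 and 4.18e-06). The CCN gene Wisp2 was at 15.5 CPM in VWAT_HFD, against 50.1 CPM in SWAT_HFD, and at 22.8 CPM in VWAT_SD, against 66.2 CPM in SWAT_SD (adjusted p = 3.44e-06 and 7.46e-06). The CCN genes Nov and Wisp1 went the other way on both diets. On HFD Nov was at 158 CPM in VWAT_HFD, against 26.9 CPM in SWAT_HFD (adjusted p = 1.44e-05 in edgeR). Wisp1 was at 4.79 CPM in VWAT_HFD, against 1.83 CPM in SWAT_HFD (adjusted p = 0.000247 in edgeR). In all, 6 of the 15 were higher and 5 lower in VWAT on HFD, and 7 were higher and 4 lower on SD, where 13.2% of all genes were higher and 12.5% lower on SD, and 13.4% in each direction on HFD.

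Receptors of these proteins were read from a list of 18, all tested. After HFD in VWAT 5 rose and 0 fell, against the same 8.64% and 6.98%: the fibronectin receptor subunits Itga5 and Itgb1, the integrin subunits Itga8 and Itgb3, and the syndecan Sdc2. Itga5 stood at 404 CPM in VWAT_HFD, against 209 CPM in VWAT_SD (log2 0.95, adjusted p = 0.00133 in edgeR), and Itgb3, a partner of integrin alpha v, at 51.2 CPM, against 33.6 CPM (adjusted p = 0.0106). The median log2 change of the 18 was 0.30, and 3 rose without VWAT_HFD replicate 2 or VWAT_SD replicate 3. In those fits 5.29% and 6.76% of all genes passed in either direction. In SWAT 0 passed in edgeR or limma voom, where 1.11% and 0.0841% of all genes passed. DESeq2 passed 4, where it passed 3.83% of all genes, and 8 had an unadjusted p under 0.05, where 14.9% did. Between depots, 5 of the 18 were higher and 3 lower in VWAT on HFD, where 13.4% of all genes were in each direction. On SD 4 were higher and 4 lower, where 13.2% and 12.5% of all genes were. Itgb8 and Itgb6, beta subunits that pair with alpha v and can activate latent TGF-beta, differed between depots on HFD, in opposite directions. Itgb8 was at 15.8 CPM in VWAT_HFD, against 0.397 CPM in SWAT_HFD, and Itgb6 at 0.206 CPM in VWAT_HFD, against 1.54 CPM in SWAT_HFD (adjusted p = 3.05e-08 and 9.93e-06). Cd36, a receptor for thrombospondins and a carrier of fatty acids, was at 38.1 CPM in VWAT_HFD, against 193 CPM in SWAT_HFD (adjusted p = 0.000102).

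Signals that act on these genes were read from 3 lists. Of 19 genes of the TGF-beta pathway, 5 rose (8.64% of all genes) and 0 fell (6.98%) in VWAT after HFD, Smad7, Tgfb1 and Skil among them, and 4 rose and 1 fell with library size alone. Smad7, an inhibitor that the pathway itself induces, stood at 47.2 CPM in VWAT_HFD, against 32.1 CPM in VWAT_SD (log2 0.56, adjusted p = 0.00466 in edgeR). These 5 genes were higher in the group where Tgfbi was lower, and the others of the 19 did not pass. The median of the 19 was -0.032. The count of rises was 1 without VWAT_HFD replicate 2 or VWAT_SD replicate 3, 2 without VWAT_SD replicate 2 and 3 without VWAT_HFD replicate 1, and 3 genes fell without VWAT_HFD replicate 3. In those fits, in the same order, 5.29, 6.76, 8.86, 9.24 and 29.8% of all genes passed in either direction. In SWAT 0 passed in edgeR or limma voom, where 1.11% and 0.0841% of all genes passed. DESeq2 passed 2, where it passed 3.83% of all genes, and 4 had an unadjusted p under 0.05, where 14.9% did. Between depots, 9 of the 19 were higher and 1 lower in VWAT on HFD, and 5 were higher and 2 lower on SD. Of all genes, 13.4% were higher and 13.4% lower on HFD, and 13.2% higher and 12.5% lower on SD. With 1 library left out, 6 to 9 were higher and 0 to 3 lower on HFD. On SD, 3 to 6 were higher and 1 to 3 lower. Ltbp4, which anchors latent TGF-beta in the matrix, was at 1709 CPM in VWAT_HFD, against 252 CPM in SWAT_HFD (adjusted p = 7.04e-08 in edgeR).

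Of 19 target genes of YAP other than the members, 2 rose (Fjx1 and Ccdc80) and 2 fell (Igfbp3 and Nt5e) in VWAT, shares near the 8.64% and 6.98% of all genes, and 1, Ccdc80, rose in SWAT, where 1.11% of all genes passed. With library size alone 1 rose and 3 fell in VWAT, and 0 rose and 1 fell in SWAT. The SWAT call was lost without any single SWAT or VWAT_SD library or VWAT_HFD replicate 1. In those fits 0 to 0.776% of all genes passed in SWAT. In VWAT 1 rose without any single VWAT library other than VWAT_HFD replicate 3, and 1 fell without VWAT_HFD replicate 2 or VWAT_SD replicate 1 or 3. Of 18 immediate early genes, to which Cyr61 also belongs, 3 rose and 3 fell in VWAT, where 8.64% and 6.98% of all genes did, and 3 rose and 6 fell with library size alone. Egr3 stood at 43.9 CPM in VWAT_HFD, against 16.6 CPM in VWAT_SD (adjusted p = 0.000604 in edgeR), while Fos was at 2969.5 CPM, against 4597 CPM (adjusted p = 0.0244). The median log2 change was -0.12. The count of falls was 0 without any single VWAT library other than VWAT_HFD replicate 3, 6 without that one, and 1 without replicate 1 or 2 of either SWAT group, and 1 gene rose without VWAT_HFD replicate 2. Of all genes, 5.29 to 9.75% passed without any single VWAT library other than VWAT_HFD replicate 3, and 29.8% without that one. Without replicate 1 or 2 of either SWAT group 13.3 to 13.9% passed. In SWAT 0 passed in edgeR or limma voom, where 1.11% and 0.0841% of all genes passed. DESeq2 passed 2, where it passed 3.83% of all genes, and 3 had an unadjusted p under 0.05, a share near the 14.9% of all genes. Between depots, 7 of the YAP targets were higher and 4 lower in VWAT on HFD, and 6 higher and 3 lower on SD. Of the immediate early genes, 4 were higher and 5 lower on HFD, and 3 higher and 3 lower on SD. Of all genes, 13.4% were higher and 13.4% lower on HFD, and 13.2% higher and 12.5% lower on SD.

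Collagens and their partners were read from a list of 16. In VWAT 14 rose and 0 fell after HFD, where 8.64% and 6.98% of all genes did, with a median log2 change of 0.78. In SWAT 2 rose, Col3a1 and Col5a2, where 1.11% of all genes passed, with a median of 0.62. Col6a2, a chain of the beaded collagen VI, stood at 5017 CPM in VWAT_HFD, against 2686 CPM in VWAT_SD (adjusted p = 0.000855 in edgeR), and Col3a1, a fibrillar collagen, at 98207 CPM in SWAT_HFD, against 41818 CPM in SWAT_SD (adjusted p = 0.0384). The VWAT count was 8 without VWAT_HFD replicate 2 or VWAT_SD replicate 2 or 3, and 9 without VWAT_HFD replicate 1. In those fits, in the same order, 5.29, 8.86, 6.76 and 9.24% of all genes passed in either direction. The SWAT count was 12 in DESeq2 and 0 in limma voom, where 3.83% and 0.0841% of all genes passed. It was 12 without VWAT_HFD replicate 3 (4.29% of all genes), 8 without VWAT_HFD replicate 2 (1.405%) and 4 without SWAT_HFD replicate 3 (0.684%). It was 0 without SWAT_HFD replicate 1 (0.349%) or any single VWAT_SD library (0.461 to 0.559%). It was also 0 without SWAT_HFD replicate 2 or any single SWAT_SD library, where 0% of all genes passed. Between depots, 7 were lower and 1, Bgn, higher in VWAT on HFD, and 10 were lower and 1, again Bgn, higher on SD, where 12.5% of all genes were lower and 13.2% higher on SD, and 13.4% in each direction on HFD. With library size alone 6 were lower and 5 higher on HFD, and 9 lower and 3 higher on SD; on SD 5 were higher with the block in the 6 SD libraries.

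The genes whose log2 CPM followed each member most closely over the 12 libraries were found among 9942 genes with a mean of at least 5 CPM, 2 for each member. The closest to Sparc was Col3a1 (Pearson r 0.991, and 0.983 after depot means were taken out), and the closest to Postn was Fstl1 (0.983 and 0.986). The closest to Tgfbi was Igfbp3, a binder of insulin-like growth factors (0.985 and 0.957), and the closest to Thbs1 was Jazf1, a zinc finger gene (0.997 and 0.985). Ctgf was closest to Rab23 (0.979 and 0.908), Thbs2 to Pcdh20 (0.992 and 0.889), Fn1 to Golim4 (0.970 and 0.971) and Cyr61 to Cryab (0.956 and 0.797). Among the members themselves, Postn and Sparc followed each other within depots (0.968), and Thbs1 and Tgfbi ran opposite (-0.929). The libraries fall into 4 groups that share diet and depot, so these values describe the pattern of the groups and are no test.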

How the data were processed

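Messenger RNA of sorted adipocyte precursors was measured in 12 libraries, and the members and gene lists were chosen with earlier results of these data known. The authors deposited unnormalised read counts per gene, which per the submitters' processing notes were made with TopHat and HTSeq on mm9; versions and the strand setting are not given in the sources used here, so reads of overlapping or antisense genes may be mixed. Per the labels' protocols, libraries mark the strand with dUTP and reads were 75 bp single ends. The 3 entries that name no gene (3.53 to 5.57%, 1.71 to 1.95% and 14.98 to 20.81% of a library) were left out.

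edgeR's filterByExpr kept 14266 of 14398 genes, all 10 members among them. edgeR 4.0.16 in R 4.3.3 (TMM, robust quasi-likelihood F test) fitted 4 group means over 12 libraries, with Benjamini-Hochberg adjustment over all genes tested and 5 comparisons. CPM per kb used the union of GENCODE exons of GRCm38, and log2 CPM used a prior count of 2. The named genes were all members and, per list and comparison, some of the passing genes, which were not always those of lowest p. Where a list had few calls all of them were named, as were markers of other cell types. The values of 1 gene of the TGF-beta list are not reported here. The steps were tested on simulated data. Alternatives were DESeq2 size factors, library size alone, no filter, DESeq2's Wald test (1.42.0), limma voom (3.58.1), a fit of the 6 libraries compared, a replicate block, leaving out 1 library at a time, and leaving out 2 together. Same-numbered VWAT_SD and SWAT_SD libraries deviated together (r of 0.177, 0.178 and 0.398), a hint from the data that their numbers mark pairs. The labels do not say so, and the main fit has no block, which was used in alternatives only. In the other comparisons at least 1 pair had r under 0.1. No 2 libraries agreed within sampling noise. The p-values measure the spread between pools of 3 mice.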

Additional observations from a re-analysis of the deposited data

How the results depend on the processing

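Of 1000 alternative values of single members, 933 kept their direction and side of the threshold, 6 no longer passed, 19 newly passed and 42 changed sign; no member that passed changed sign. Without 1 library, 3 to 6 members passed in VWAT after HFD (5.29 to 29.8% of all genes) and 0 to 3 in SWAT (0 to 4.29%): in VWAT 3 without VWAT_HFD replicate 2 or VWAT_SD replicate 3 (5.29 and 6.76%) and 6 without VWAT_HFD replicate 3 (29.8%), and in SWAT 1 without VWAT_HFD replicate 2 (1.405%) and 3 without VWAT_HFD replicate 3. The members' median ran from 0.29 to 0.84 in VWAT, 0.16 to 0.44 in SWAT, -0.0295 to 0.45 for the interaction, -0.33 to -0.0364 between depots on HFD and -0.56 to -0.21 on SD. The fits with 1 library left out that changed sign ran from -0.0058 to 0.59 for Ctgf in SWAT, -0.0079 to 0.19 for Cyr61 in VWAT, -0.15 to 0.13, -0.0881 to 0.14, -0.0586 to 0.64, -0.0739 to 0.35 and -0.10 to 0.0555 for Cyr61, Fn1, Postn, Sparc and Thbs3 in the interaction, -0.18 to 0.0428, -0.49 to 0.21 and -0.16 to 0.62 for Fn1, Postn and Tnc between depots on HFD, and -0.62 to 0.34 for Tnc on SD.

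In SWAT, library size alone passed 1 member (Tgfbi), DESeq2 4, the 6 SWAT libraries alone 3, and leaving out VWAT_HFD replicate 3 and SWAT_HFD replicate 2 passed 2 (Postn and Sparc), where 1.74% of all genes passed. With those 2 libraries out, the median was 0.74 in VWAT and 0.47 for the interaction, and signs changed for Thbs3 (0.13) and Cyr61 (0.11) in the interaction and for Thbs3 (0.0394) and Postn (0.32) between depots on HFD.

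Library size alone shifted the median of all genes by -0.126 in VWAT, -0.177 in SWAT, 0.301 between depots on HFD and 0.236 on SD, and all genes then passed as 799 higher and 1822 lower in VWAT (1232 and 996 with TMM), 101 and 162 in SWAT (138 and 21), 5830 and 1124 between depots on HFD (1918 and 1912) and 4279 and 1118 on SD (1880 and 1789). The members' medians became 0.15 and -0.13 between depots on HFD and SD. Signs changed for Thbs3 in VWAT (-0.0021), Thbs2, Thbs3 and Cyr61 in SWAT (-0.0478, -0.0373 and -0.0329), Thbs3 and Cyr61 in the interaction (0.0352 and 0.0448), Thbs3, Postn and Fn1 between depots on HFD (0.18, 0.13 and 0.23), and Thbs3 and Fn1 on SD (0.14 and 0.13). The shift follows from that scaling; other causes were not tested.

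The replicate block changed 1 call in the fit of 12 libraries, Thbs2 in VWAT (log2 0.47, adjusted p = 0.0479 in edgeR). Same-numbered VWAT_HFD and VWAT_SD libraries had r of -0.017, 0.027 and 0.067, and the labels do not say whether their numbers mark pairs. The 159 genes that passed in SWAT were 536 with DESeq2, 12 with limma voom, 352 with the SWAT libraries alone and 247 with the replicate block, and the interaction's 0 genes were 35 with DESeq2 and 0 with limma voom. Tnc had the lowest level of the members, at most 6.26 CPM.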
